A study of Mus musculus with 6 samples.

Results

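The BCL2 family decides whether a cell's mitochondria release the proteins that start apoptosis. The family was taken here as 10 genes in 3 classes, and all probe sets whose platform symbol was one of these genes were described. The anti-apoptotic members are Bcl2, Bcl2l1 (BCL-XL), Bcl2l2 (BCL-W) and Mcl1, the effectors are Bax and Bak1, and the BH3-only members are Bid, Bcl2l11 (BIM), Bmf and Pmaip1 (NOXA). Probe sets under these symbols were found for 9 of the 10 genes, 27 probe sets among the 45037 tested. The platform table used here lists none under Bax, which was not analysed here, so Bak1 stands alone for the effectors.

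The samples were CD11c+ dendritic cells, which take up and present antigen, sorted from the spleens of C57Bl/6 mice. The wild-type mice carry the genotype label WT and the knockout mice the label Map3k7CreER, and tamoxifen was given to both groups in vivo for 3 days. TAK1, the product of Map3k7, is a kinase through which Toll-like and TNF receptors signal to NF-kB and MAP kinases. There were 3 samples in each group and 1 Affymetrix array for each sample. The age of the mice and the promoter that drives CreER are not given in the sources used here. Map3k7 deletion, the CreER transgene and any effect of deletion in other cells of the mouse cannot be told apart. The labels do not say whether replicates are different mice, and a p-value therefore reflects the spread of these samples alone, which may be technical.

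Values are RMA signals on the log2 scale, on which 1 unit is a doubling. The array medians ran from 3.77 to 3.81, so a probe set near 4 is no brighter than the typical probe set of the array. Of the 27 probe sets, 8 had a mean below the median probe set. On the brightest Map3k7 probe set the wild-type arrays read 6.68, 6.69 and 6.57, and the knockout arrays read 4.04, 4.46 and 3.64. All 10 dendritic cell markers listed (Itgax, Flt3, Zbtb46, H2-Ab1 and others) had means at or above the median probe set in these samples. Of these, 0 passed the test between the groups (limma, 1 higher and 3 lower at an unadjusted p under 0.05). The groups did not overlap for Zbtb46 (-0.75, limma adjusted p = 0.0621), Irf8 (-0.59) or Flt3 (0.35). Of 5 measured markers of the CD8a+ dendritic cell subset 1 rose (Itgae) and 0 fell (limma, 1 higher and 2 lower at an unadjusted p under 0.05), and the other 4 stood between -1.47 (Cd8a) and -0.21. Of 4 markers of the CD11b+ subset 1 rose (Itgam) and 0 fell (limma, 1 higher and 2 lower at an unadjusted p under 0.05), and the other 3 stood between -1.10 (Esam) and -0.21. The groups did not overlap for Cd8a (limma adjusted p = 0.062), Xcr1 (-0.81), Cadm1 (-0.21), Esam (limma adjusted p = 0.0926) or Cx3cr1 (-1.02). Nor did they for Itgae and Itgam, which rose. Over all genes the groups did not overlap for 21.2%, and 16.4% had an unadjusted p under 0.05 in either direction (limma). At the adjusted threshold 1.08% of all genes rose and 0.591% fell. The part of these subset markers in the family's differences was not tested. The 3′ minus 5′ signal of the actin control transcript, a sign of RNA integrity, ran from 0.22 to 0.35 in wild-type and from 0.31 to 0.35 in knockout arrays. That of the Gapdh control was less even in wild-type arrays, at -0.12, -0.26 and 0.15. In knockout arrays it was -0.16, -0.15 and -0.14. The array number limits the precision of every value. In sorted cells measured in bulk, less RNA per cell and fewer cells of one type cannot be told apart.

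In a living cell the anti-apoptotic proteins hold the effectors in check by binding them and by binding BH3-only proteins. BH3-only proteins act as sensors: BIM and BID can activate BAX and BAK directly, and BMF and NOXA mainly neutralise anti-apoptotic partners, NOXA with a preference for MCL1. Once activated, BAX and BAK open the outer mitochondrial membrane and cytochrome c escapes. MCL1 and BIM proteins are also controlled after transcription, which an mRNA array does not measure. BIM is known as a main driver of the normal turnover of dendritic cells, and MCL1 as one of the proteins they need to survive.

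The member with the largest difference was Bcl2l11, and FOXO factors are among the known activators of its gene. Its promoter is shown because it belongs to the member the results turn on. Mcl1 is shown beside it as the anti-apoptotic member with the largest difference. Each sequence is the 250 bases before an annotated start, from RefSeq on GRCm38.p6, on the plus strand. Capitals mark the FOXO core GTAAACA in Bcl2l11 and the kappaB letters (GGG and TTTCC with 2 bases between them, here on the reverse strand) in Mcl1.
Bcl2l11, chr2:128125788-128126037: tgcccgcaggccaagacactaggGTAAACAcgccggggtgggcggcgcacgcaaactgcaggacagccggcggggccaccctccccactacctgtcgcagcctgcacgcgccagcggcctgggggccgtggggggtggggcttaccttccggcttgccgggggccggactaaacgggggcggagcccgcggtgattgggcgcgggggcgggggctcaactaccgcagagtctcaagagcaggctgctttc
Mcl1, chr3:95658471-95658720: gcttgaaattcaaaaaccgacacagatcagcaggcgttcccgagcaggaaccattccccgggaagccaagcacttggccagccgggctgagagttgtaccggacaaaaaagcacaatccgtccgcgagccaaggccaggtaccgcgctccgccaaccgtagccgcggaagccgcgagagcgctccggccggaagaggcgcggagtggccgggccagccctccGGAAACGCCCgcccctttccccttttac

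Both strands were searched for these letters and for the AP-1 letters TGANTCA in the same window of 32851 annotated starts. The FOXO core occurred in 3.17% of them, the kappaB letters in 1.41% and the AP-1 letters in 6.75%. In Bcl2l11 the FOXO core begins at position -227 from the upstream one of its 2 starts, and no such match lies in the window of the other start. In Mcl1 the kappaB letters lie at positions -28 to -19 from the start. Among the other members searched, Bcl2l1 held the kappaB letters at one start, and the AP-1 letters matched in none of the members' windows. No 2 of these motifs overlapped in a window. Pmaip1 was not searched. A match of letters does not show that a factor binds there.

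Of the 27 probe sets, 1 rose and 0 fell in knockout cells at a Benjamini-Hochberg adjusted p under 0.05 over all 45037 probe sets (limma), against 0.804% and 0.391% of all probe sets. The 1 belonged to Bcl2l11. At an unadjusted p under 0.05, 8 of the 27 were higher and 2 lower (37.0% together, against 12.3% of all probe sets). The wild-type and knockout arrays did not overlap on 10 of the 27 (37.0%), against 17.5% of all probe sets. Of these 10, 5 belong to Bcl2l11 and 3 to Mcl1, so they are not independent. Counted by gene, on the brightest probe set of each, the groups did not overlap for 4 of 9 genes (44.4%), namely Mcl1, Bak1, Bcl2l11 and Bmf, against 21.2% of all genes. None of the 9 genes passed on that probe set (0 of 9 by limma). At an unadjusted p under 0.05 there were 4 of 9, against 16.4% of all genes. The members were chosen with earlier results of these data known. All 9 lay at or above the median probe set, as did only 10503 of the other genes, so these shares are not like for like. The median difference over the 9 genes was -0.04, beside -0.02 over all 17097 genes.

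**Figure D1:**
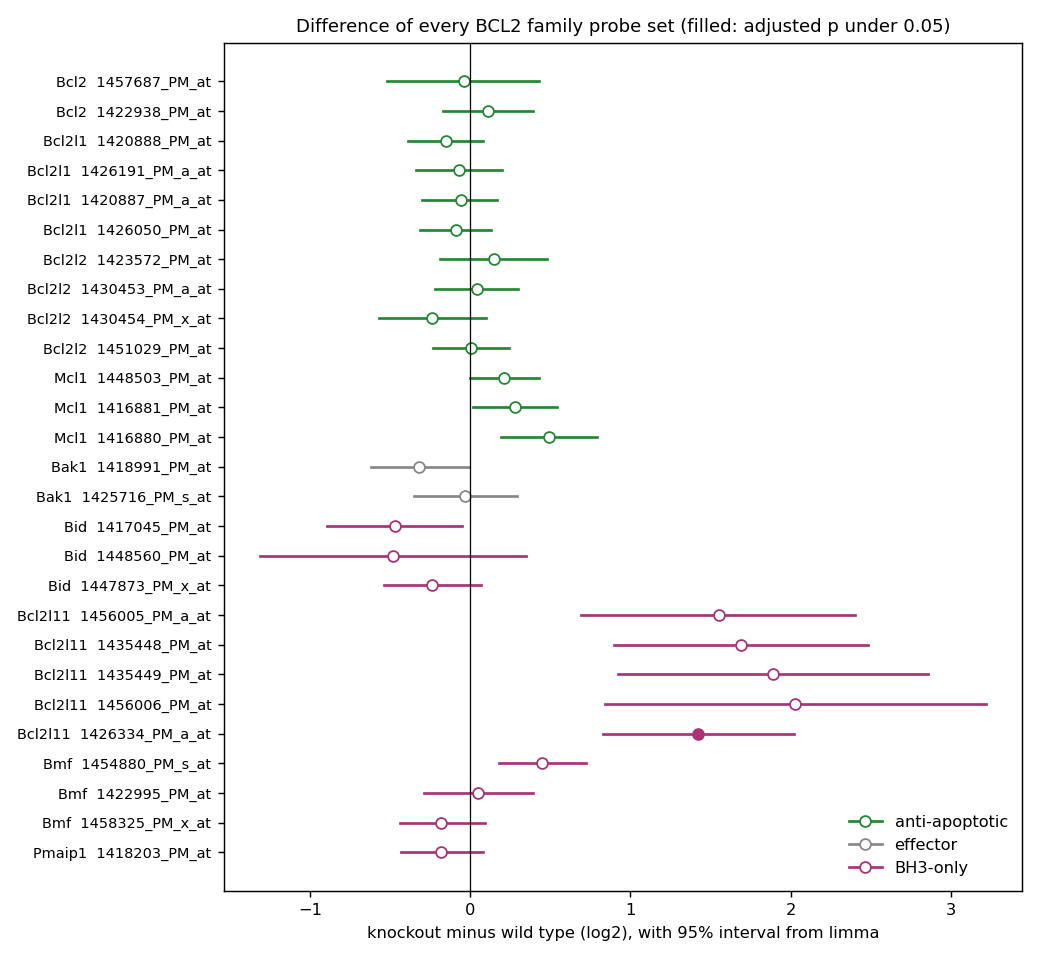
Knockout minus wild-type difference of each of the 27 BCL2 family probe sets on the log2 scale, with its 95% interval from limma, coloured by class; a filled point passed at an adjusted p under 0.05. The 5 Bcl2l11 probe sets lie between 1.42 and 2.03, while the other 22 lie between -0.48 and 0.49.

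Among the BH3-only members, Bcl2l11 had a higher mean in knockout cells on each of its 5 probe sets, and the groups did not overlap on any of them. On the brightest, 1456005_PM_a_at, the wild-type arrays read 9.15, 9.21 and 9.74 and the knockout arrays 10.02, 11.12 and 11.60. Knockout replicate 1 lay only 0.28 above wild-type replicate 3, while knockout replicates 2 and 3 stood well above both. The means were 9.37 ± 0.32 and 10.91 ± 0.81 (SD, n = 3), a difference of 1.55 (SE 0.37, 95% interval 0.69 to 2.40) or 2.92-fold, with a limma adjusted p of 0.111.

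The probe set that passed, 1426334_PM_a_at, was the dimmest of the 5 and close to the array median in wild-type cells. It read 4.02, 3.59 and 4.0 in wild-type and 4.74, 5.35 and 5.81 in knockout arrays, again with knockout replicate 1 the lowest of its group. The rise was 1.42 (SE 0.26), or 2.68-fold, with a limma adjusted p of 0.0492. When arrays were left out in turn it passed in 1 of the 6 fits, that without knockout replicate 1, and the adjusted p over those 6 and the other alternatives ran from 0.0101 to 0.197. Folds of so dim a probe set are understated by RMA.

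The other 3 probe sets gave the same order of knockout arrays. Probe set 1435448_PM_at read 7.95, 7.97 and 8.31 against 8.93, 9.89 and 10.47, a difference of 1.69 (limma adjusted p = 0.0693). Probe set 1435449_PM_at read 6.86, 6.10 and 7.19 against 7.70, 8.82 and 9.31, a difference of 1.89 (limma adjusted p = 0.0894). Probe set 1456006_PM_at read 5.23, 5.05 and 6.37 against 6.43, 8.11 and 8.20, a difference of 2.03 (limma adjusted p = 0.13), with the groups only 0.06 apart. Knockout replicate 3 was the highest array and knockout replicate 1 the lowest knockout array on all 5 probe sets. Wild-type replicate 3 was the highest wild-type array on 4 of them, and replicate 1 on the fifth.

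The 5 probe sets were designed on 3 source sequences and measure the same RNA, so they are not 5 replicates. Averaged per gene, Bcl2l11 differed by 1.72 (limma adjusted p = 0.0539, over genes). The spread among knockout arrays was wide, a range of 1.58 on the brightest probe set against 0.58 in wild-type arrays. Without knockout replicate 1 the difference on that probe set was 1.99 (limma adjusted p = 0.00942) and all 5 probe sets passed. Without any 1 of the other 5 arrays, 0 of the 5 passed, and the lowest difference on the brightest probe set was 1.20.

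**Figure D2:**
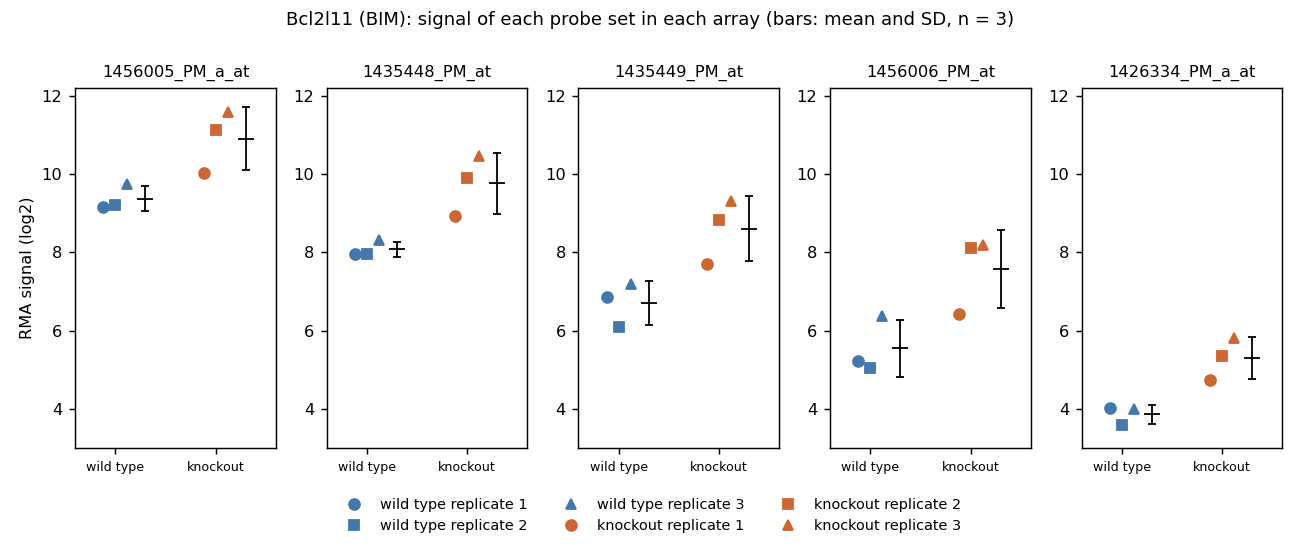
RMA signal (log2) of the 5 Bcl2l11 probe sets in each array, wild type in blue and knockout in orange, with the group mean and SD (n = 3) beside the points. Knockout replicate 1 lies between the wild-type arrays and the other knockout arrays in every panel, from 0.06 to 0.72 above the highest wild-type array.

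Other values moved with the groups beside Bcl2l11, and their part in its difference was not tested. Of 10 macrophage markers 4 rose (Cd163, Cd5l, Mertk and Mrc1) and 0 fell, against 1.08% and 0.591% of all genes. At an unadjusted p under 0.05, 7 were higher, C1qa, C1qb and C1qc among them, and 0 lower (limma). The share of all genes was 16.4% in either direction. Of the 10 markers, 0 had a mean below the median probe set. Their summed signal (log2) was 10.79 to 10.96 in wild-type arrays. It was 11.77, 11.68 and 11.16 in knockout replicates 1, 2 and 3. Of 7 neutrophil markers 0 passed (limma, 2 higher at an unadjusted p under 0.05), and 3 had a mean below the median probe set. Their summed signal was 7.26 to 8.12 in wild-type arrays and 9.03, 10.48 and 8.33 in the knockout replicates. Of 5 erythroid markers 1 fell, the globin Hbb-b2 (limma, 0 higher and 3 lower at an unadjusted p under 0.05). Of the 5, 2 had a mean below the median probe set. Their summed signal was 9.35 to 11.36 in wild-type and 6.73 to 8.01 in knockout arrays. Hbb-b2 stood at -3.01 and the globin Hba-a1 at -3.57 (limma adjusted p = 0.0325 and 0.0713). Of the monocyte, plasmacytoid dendritic cell, B, T and NK cell markers 0 passed (limma, 1 monocyte marker higher, and 1 monocyte and 1 B cell marker lower, at an unadjusted p under 0.05).

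Bmf, a BH3-only protein that responds to loss of attachment and other stress, was brightest on probe set 1454880_PM_s_at. It read 6.66, 6.55 and 6.82 in wild-type arrays and 7.27, 6.97 and 7.15 in knockout arrays. Every knockout array lay above every wild-type array, and the difference was 0.45 (SE 0.12, 95% interval 0.18 to 0.72) with a limma adjusted p of 0.141. Probe sets of this suffix can match several transcripts. The other 2 Bmf probe sets were dim, at 3.33 to 3.88 as group means, and stood at 0.05 and -0.18. Averaged over the 3 the difference was 0.11.

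Bid, the BH3-only protein cleaved by caspase-8, had lower means in knockout cells. Its brightest probe set read 8.81, 9.19 and 8.51 in wild-type and 8.45, 8.51 and 8.15 in knockout arrays. Wild-type replicate 3 and knockout replicate 2 met at 8.51, so the groups touched. The difference was -0.47 (SE 0.18, 95% interval -0.89 to -0.05, limma adjusted p = 0.341), and it was -0.29 without wild-type replicate 2. Its second probe set spread from 5.66 to 7.27 within wild-type arrays and stood at -0.48 (limma adjusted p = 0.698), or -0.13 without wild-type replicate 2, and the dim 1447873_PM_x_at at -0.24.

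Pmaip1, which encodes NOXA, had 1 probe set. It read 12.37, 12.09 and 12.36 in wild-type and 12.05, 12.09 and 12.16 in knockout arrays. The groups overlapped at a high signal, and the difference was -0.18 (95% interval -0.43 to 0.08, limma adjusted p = 0.613).

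Among the anti-apoptotic members, 0 of 13 probe sets passed (limma). At an unadjusted p under 0.05 there were 2 of 13 (limma), against 12.3% of all probe sets, and these 2 belong to Mcl1. Mcl1 had the largest differences. Its brightest probe set read 11.99, 11.90 and 11.99 in wild-type and 12.07, 12.23 and 12.22 in knockout arrays, a difference of 0.21 (SE 0.09, limma adjusted p = 0.417). The second probe set stood at 0.28 (limma adjusted p = 0.354). The third, 1416880_PM_at, read 10, 9.84 and 10.11 against 10.24, 10.55 and 10.63, a difference of 0.49 (SE 0.13, 95% interval 0.19 to 0.79) or 1.40-fold, with a limma adjusted p of 0.151. Every knockout array lay above every wild-type array on all 3 Mcl1 probe sets, which were designed on 1 source sequence.

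Bcl2, the founding member of the family, read 5.26, 5.15 and 4.75 in wild-type arrays and 4.69, 5.42 and 4.93 in knockout arrays. The groups overlapped almost wholly, with a difference of -0.04 (95% interval -0.52 to 0.43, limma adjusted p = 0.965), and its second probe set stood at 0.11. Bcl2l1, whose product BCL-XL is a broad guardian of the mitochondrial membrane, read 4.94, 5.20 and 5.14 against 4.99, 4.94 and 4.90. Its difference was -0.15 (95% interval -0.39 to 0.08, limma adjusted p = 0.648), and its other 3 probe sets were below the median probe set and stood between -0.09 and -0.06. Bcl2l2 read 4.82, 4.66 and 4.62 against 4.75, 5.14 and 4.65, a difference of 0.15 (95% interval -0.19 to 0.48, limma adjusted p = 0.787). Its other 3 probe sets stood at 0.04, -0.24 and 0.01, and the mean over all 4 at -0.01. Knockout replicate 2 was the highest array for both Bcl2 and Bcl2l2. Over the 10 probe sets of these 3 genes, the 95% intervals ran from -0.57 at the lowest to 0.48 at the highest, so a change as large as that of Bcl2l11 lay outside them. None of these probe sets read above 5.42 in any array, and RMA compresses changes of dim probe sets.

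The effector Bak1 read 7.31, 7.54 and 7.51 in wild-type arrays and 7.26, 7.27 and 6.89 in knockout arrays on its bright probe set. The groups did not overlap by a narrow margin, and knockout replicate 3 stood lowest. The difference was -0.32 (SE 0.13, 95% interval -0.62 to -0.01, limma adjusted p = 0.38). It was -0.19 without knockout replicate 3 and -0.17 averaged over both Bak1 probe sets. The second Bak1 probe set was below the median probe set and stood at -0.03.

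**Figure D3:**
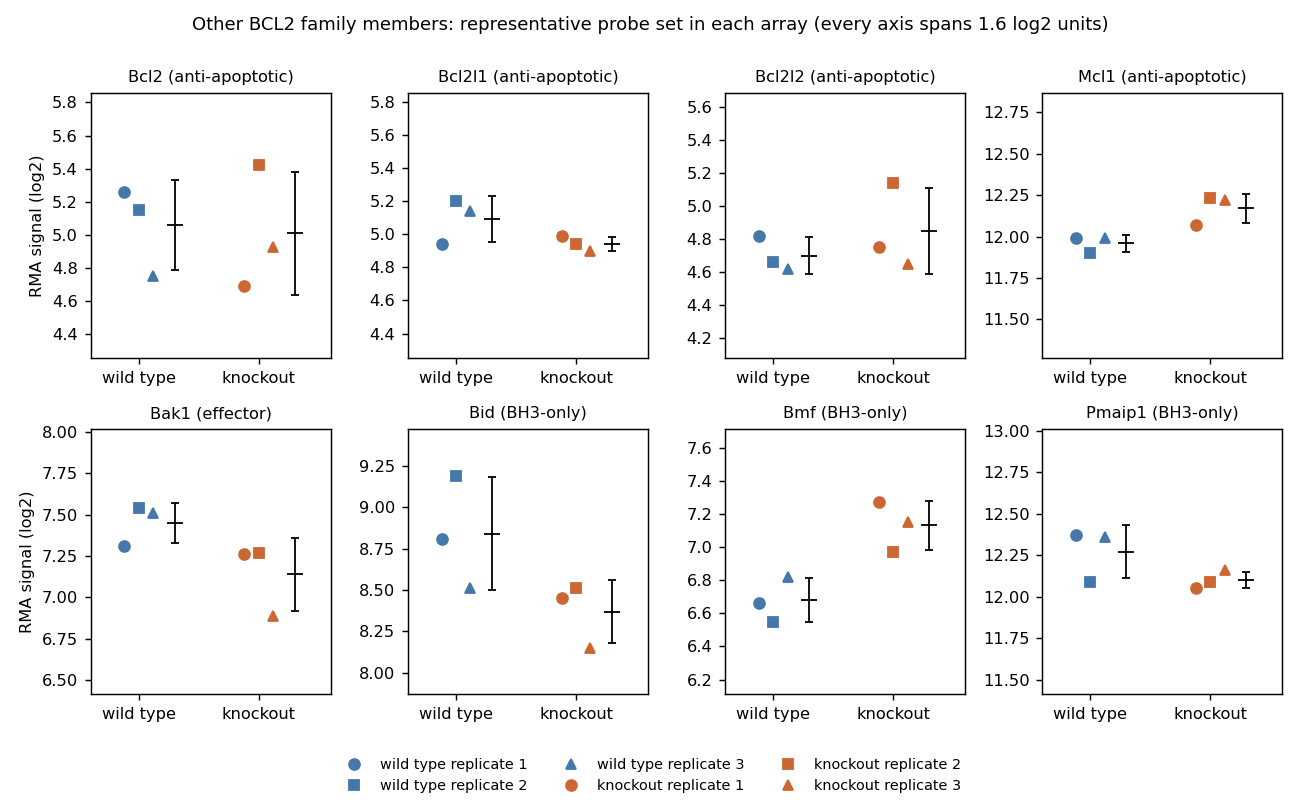
RMA signal (log2) of the brightest probe set of the 8 members other than Bcl2l11 in each array, with group mean and SD (n = 3); every axis spans the same number of log2 units, so distances can be compared between panels but levels cannot. The groups do not overlap for Mcl1, Bak1 and Bmf, and they meet or overlap for the other 5.

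The balance of the classes was described as the mean change of the members in each array from the wild-type mean, 1 probe set a gene, with no test because the members were chosen. For the 4 anti-apoptotic genes the changes were 0.05, 0.02 and -0.08 in wild-type arrays and -0.08, 0.23 and -0.03 in knockout arrays, which overlapped. For the 4 BH3-only genes they were -0.04, -0.03 and 0.07 in wild-type arrays and 0.16, 0.38 and 0.47 in knockout arrays, which did not overlap. The mean BH3-only change was 0.34, beside 0.04 for the anti-apoptotic genes and -0.32 for Bak1. With arrays left out in turn the BH3-only change ran from 0.27 to 0.43. The anti-apoptotic change ran from -0.05 (without knockout replicate 2) to 0.10, and that of Bak1 was -0.19 without knockout replicate 3 and -0.17 averaged over its probe sets. Without Bcl2l11 the BH3-only change was -0.06, a choice made after seeing the values. In those 3 genes the positive difference of Bmf was met by negative ones of Bid and Pmaip1.

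Within arrays, the change of Bcl2l11 less that of Mcl1 was compared as well, the pair being picked after their values were seen. It was -0.24, -0.10 and 0.34 in wild-type arrays. In knockout arrays it was 0.54, 1.48 and 1.98. On these probe sets, the brightest of each gene, the groups did not overlap. Of the other pairs, only that of 1456006_PM_at with the brightest Mcl1 probe set was looked at. From wild-type replicate 3 to knockout replicate 1, Bcl2l11 went from 6.37 to 6.43 there. Mcl1 went from 11.99 to 12.07, a wider step. The groups therefore overlapped on that pair, and the separation depends on the probe set.

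**Figure D4:**
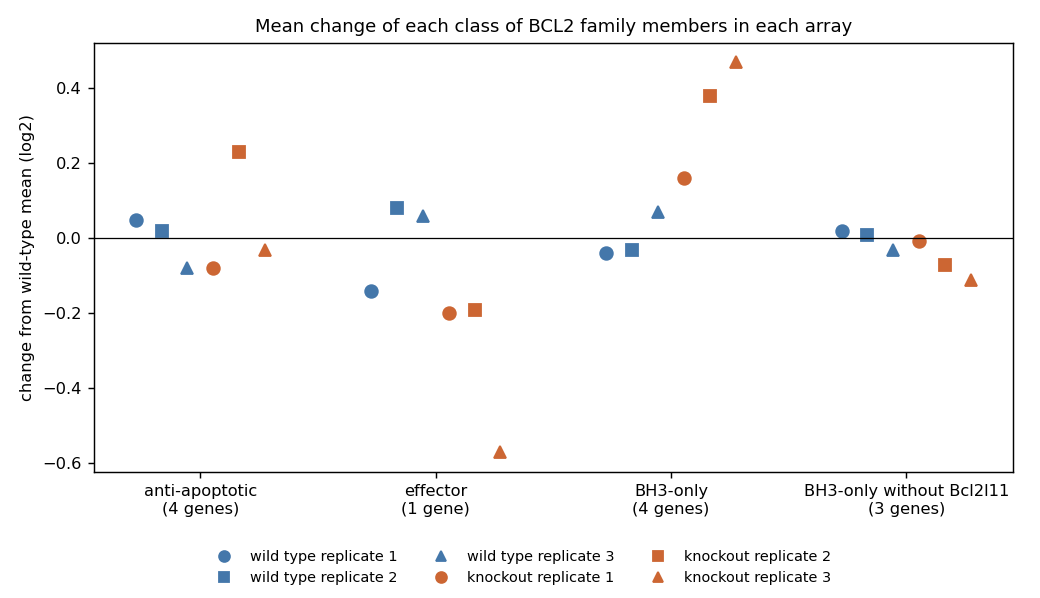
Mean change (log2) of each class from the wild-type mean, 1 point per array, wild type in blue and knockout in orange, for 4 anti-apoptotic genes, the effector Bak1, 4 BH3-only genes and the 3 BH3-only genes other than Bcl2l11. The BH3-only points of knockout arrays (0.16 to 0.47) lie above those of wild-type arrays, and without Bcl2l11 all lie between -0.11 and 0.02.

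Over the 6 arrays, the 3 genes nearest to Bcl2l11 in their deviations from their own mean, among 10503 genes at or above the median probe set, were Fgfr1, Cd33 and Il18rap. The root mean square distance was 0.14, 0.22 and 0.23 on the log2 scale. These genes were picked for values like those of Bcl2l11, its step between the groups included. Their group differences and their dependence on knockout replicate 1 therefore follow from the choice and describe the likeness only. Fgfr1, a fibroblast growth factor receptor, read 6.21, 6.23 and 6.59 in wild-type and 7.34, 8.22 and 8.65 in knockout arrays, and rose by 1.73 (SE 0.30, limma adjusted p = 0.0436). With arrays left out in turn it passed in 1 of the 6 fits, that without knockout replicate 1, and its difference ran from 1.44 to 2.09. Cd33, a sialic acid binding receptor of myeloid cells, stood at 1.52 (limma adjusted p = 0.0745), and Il18rap, a subunit of the interleukin-18 receptor, at 1.81 (limma adjusted p = 0.156).

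Of 15 measured genes of the wider BCL2 family, 0 rose and 0 fell, against 1.08% and 0.591% of all genes. Their median difference was 0.02. There were 2 higher and 0 lower at an unadjusted p under 0.05 (limma), against 16.4% of all genes in either direction. Bnip3, a mitochondrial protein of mitophagy with a weak BH3 motif, read 7.03, 6.83 and 6.99 in wild-type and 7.70, 7.43 and 7.30 in knockout arrays, a difference of 0.53 (limma adjusted p = 0.116). Its relative Bnip3l (NIX), which clears mitochondria from maturing red cells, stood at 0.32 (limma adjusted p = 0.248) and read higher in every knockout array than in any wild-type array. Bcl2a1a, an anti-apoptotic NF-kB target with near-identical gene copies that its probe set may not separate, read 12.14, 12.10 and 12.11 against 11.96, 11.96 and 11.87, a difference of -0.19 (limma adjusted p = 0.446). Bbc3, the BH3-only p53 target PUMA, had overlapping groups with a difference near 0, reading 5.78, 5.72 and 5.54 against 6.07, 5.77 and 5.22. Bcl2a1a and Bbc3 were named after their values were seen.

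Of 25 measured partners and regulators of the family, 0 rose and 0 fell, against 1.08% and 0.591% of all genes. Their median difference was 0.02. There were 2 higher and 2 lower at an unadjusted p under 0.05 (limma), against 16.4% of all genes in either direction. Casp8, the protease that cleaves BID, stood at 0.41 (limma adjusted p = 0.138) and read 8.90, 9.04 and 9.0 in wild-type and 9.25, 9.52 and 9.39 in knockout arrays. Dynll2, the dynein light chain that binds BMF, stood at -0.38 (limma adjusted p = 0.215).

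Of 18 transcription factors known to act on family genes, 0 rose and 1 fell, against 1.08% and 0.591% of all genes, with a median of -0.05. At an unadjusted p under 0.05, 1 was higher and 4 were lower (limma), against 16.4% of all genes in either direction. Relb, the NF-kB subunit of the noncanonical pathway, fell by 1.22 (SE 0.15, limma adjusted p = 0.0125), from 10.12, 10.27 and 10.64 to 9.15, 8.95 and 9.27. It passed in 4 of the 6 fits that leave out an array, not without wild-type replicate 2 (limma adjusted p = 0.0567) or knockout replicate 2 (limma adjusted p = 0.0792). Foxo3, a FOXO factor known to activate Bcl2l11 and named after its values were seen, read 7.76, 7.74 and 7.54 in wild-type and 8.25, 8.15 and 8.42 in knockout arrays. The groups did not overlap, and the difference was 0.59 (SE 0.11, 95% interval 0.34 to 0.85) with a limma adjusted p of 0.0563. It passed in 0 of 14 alternatives. Jun, an AP-1 subunit that can also act on Bcl2l11 and was likewise named after its values were seen, read 11.57, 11.56 and 11.61 in wild-type and 11.07, 11.20 and 11.08 in knockout arrays. The groups did not overlap, and the difference was -0.46 (SE 0.09, limma adjusted p = 0.0591). It passed in 1 of 14 alternatives, that with a trended prior (limma adjusted p = 0.0136). Foxo1 and Foxo4 stood at -0.03 and 0.01. The part of these factors in the difference of Bcl2l11 or other members was not tested.

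Of 12 measured apoptosis genes around the mitochondrial step (Cycs, Cflar and others), 0 rose and 1 fell, against 1.08% and 0.591% of all genes. Their median difference was -0.06. At an unadjusted p under 0.05, 2 were higher and 4 lower (limma), against 16.4% of all genes in either direction. Htra2, a mitochondrial protease that on release antagonises inhibitors of apoptosis, read 8.76, 8.91 and 8.99 in wild-type and 8.07, 7.89 and 8.22 in knockout arrays. It fell by 0.83 (SE 0.12, limma adjusted p = 0.0226), a 1.78-fold lower signal, and of the 6 fits that leave out an array passed only without knockout replicate 1 or 3. In the other 4 the limma adjusted p ran from 0.063 to 0.0976. Its probe set carries a suffix that can match several transcripts.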

How the data were processed

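RNA of 6 samples (100 ng each) was labelled by the 3′-IVT Express protocol and hybridised to Affymetrix arrays, per the labels' protocols. The deposited values are log2 signals made by the authors with RMA, and the submitters' processing notes name Affymetrix Expression Console 1.1; the log2 scale was read from the values (2.58 to 13.9). RMA gives no detection call, and arrays have no depth. Of 45141 probe sets, 104 controls were left out. Gene names came from the platform annotation (28898 probe sets with 1 symbol, 551 with several, 15588 with none). A gene's representative probe set was the one with the highest mean. Differences were fitted over all 45037 probe sets in R 4.3.3 with limma 3.58.1 (lmFit, eBayes, no covariates), with Benjamini-Hochberg adjustment and a threshold of 0.05, and the script was tested on simulated data. The members and lists were chosen with earlier results of these data known. Named were all members, list genes past the threshold or else the 2 with the smallest p, and the 3 likest genes; exceptions are stated. Same-numbered arrays of the 2 groups had correlated deviations of 0.05, 0.13 and 0.32, so the numbers were not taken as pairs. Promoters came from RefSeq (GRCm38.p6). Alternatives were a level filter, leaving out probe sets with the suffix x or s, repeated centring or quantile normalization, trended and robust priors, array weights, a replicate block, other gene summaries, a threshold of 0.1 and each array left out. Figures used matplotlib 3.10.9.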

Additional observations from a re-analysis of the deposited data

How the results depend on the processing

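The Bcl2l11 difference was positive in all 72 alternative values of its 5 probe sets, and 20 of these passed the threshold. The 22 probe sets of the other members passed in 0 of 311. As reported, 1 of the 27 family probe sets passed. The count was 0 without probe sets of suffix x or s (Bcl2l11 adjusted p = 0.0504), 3 with a trended prior, 2 with array weights, 5 with the replicate block and 3 at a threshold of 0.1, and with 1 array left out it ran from 0 to 5, the 5 coming without knockout replicate 1. The labels do not say that arrays sharing a replicate number are pairs. Deviations of same-numbered arrays correlated at 0.05, 0.13 and 0.32. Wild-type replicates 1 and 2 correlated better with another number, at 0.07 (knockout replicate 2) and 0.22 (knockout replicate 1). Of the list genes 2 passed as reported, 1 without probe sets of suffix x or s (Htra2 is then not tested), 4 with a trended prior, 4 with the replicate block, and 0 to 3 with 1 array left out. The BH3-only class change was -0.06 for its members other than Bcl2l11. Small differences changed sign. Bcl2 stood at 0.03 averaged over probe sets and at 0.11 on the one with the smallest p. Bcl2l2 stood at -0.01 and -0.24 in the same way, and its dimmest probe set at -0.0073 with array weights. With 1 array left out, the anti-apoptotic class change ran from -0.05 to 0.10, Bcl2 from -0.25 to 0.12, a dim Bcl2l1 probe set from -0.13 to 0.0049, 3 Bcl2l2 probe sets from -0.0032 to 0.25, from -0.04 to 0.13 and from -0.07 to 0.06, the dim Bak1 probe set from -0.16 to 0.09, a dim Bmf probe set from -0.04 to 0.22 and Bbc3 from -0.19 to 0.24. Bbc3 stood at -0.06 after repeated quantile normalization. The causes of these changes were not tested. Folds of dim probe sets are compressed by RMA and are the least reliable.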
